A study of Mus musculus with 6 samples.

Results

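The elements described here are the murine leukaemia virus group and the GLN group, endogenous gammaretroviruses of the mouse genome. Their rows were chosen by name alone, as those starting with RLTR4_, MMERGLN, MuLV or MuRRS, and 7 of the 1336 repeat rows in each library matched. Of these, 5 were internal regions (MMERGLN-int, RLTR4_MM-int, MuLV-int, MuRRS-int and MuRRS4-int) and 2 were long terminal repeats (MMERGLN_LTR and RLTR4_Mm). All 7 carried the class LTR and the family ERV1, and all 7 passed the filter on low counts, as did 1193 rows in total.

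RNA was compared between 3 libraries from mouse embryonic fibroblasts with no functional copy of Actb (KO) and 3 from wild-type (WT) fibroblasts. Actb encodes β-actin, a protein of the cytoskeleton and of chromatin remodelling complexes in the nucleus. Both genotypes were labelled BALB/c, an albino inbred laboratory strain, and the fibroblasts came from embryos aged 10.5 days. Whether the cultures were primary or immortalised, how the knockout allele was made, and how many embryos lay behind a replicate are not stated in the labels. The rows hold repeats and structural RNA without protein-coding genes, so neither Actb nor fibroblast markers were analysed here.

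An intact provirus carries gag, pro, pol and env between a pair of identical long terminal repeats (LTRs). The upstream LTR holds the promoter and the downstream LTR the polyadenylation signal, so a full-length transcript is mostly internal sequence with a short LTR part at each end. Recombination between the LTRs of 1 provirus leaves a solitary LTR behind, and reads of an LTR row can come from solitary LTRs as well as from proviruses. Laboratory mice carry inherited copies of murine leukaemia virus, some of them able to make infectious particles. GLN elements are relatives named after the glutamine tRNA that matches their primer binding site. MuRRS stands for murine retrovirus-related sequences, which share part of their sequence with the leukaemia viruses.

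Each value below is a sum over every genomic copy of a row's elements, without position. In such bulk RNA, fewer cells of a type and less RNA per cell cannot be told apart, and reads from a copy inside another gene's transcript are counted with the rest. How a read matching several related rows was shared out is not stated in the labels, so the 7 rows may not be independent measurements. Levels are CPM scaled to an effective library size from TMM, the trimmed mean of M-values, and are called normalized CPM. No lengths are given, so levels are compared between libraries within a row. Where rows are picked for a high level, this is a level not corrected for length.

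Library totals ran from 9191049 to 19288620 counts in KO and from 7708630 to 17937809 in WT, and ribosomal RNA (rRNA) made up most of the difference in depth. It took 84.8%, 52.9% and 77.0% of the counts in KO replicates 1, 2 and 3, against 32.4%, 84.1% and 73.7% in WT replicates 1, 2 and 3. Exact Clopper-Pearson 95% intervals, which cover counting error only, were as narrow as 32.38% to 32.45% in WT replicate 1, the shallowest library. Among 58 tested structural RNA rows, a list that includes rRNA rows, 16 were lower in KO and none higher. Their part in the results below was not tested. Of 25 tested LTR rows known from embryonic stem, early embryo or trophoblast cells, 1 (RLTR13D3A) was higher in KO and none lower, where 2.18% of all tested rows were higher and 3.6% lower. Their summed level ran from 553 to 1212 normalized CPM in KO and from 497 to 1386 in WT, and none of these rows was at 0 in any library.

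On the TMM scale, the levels of the internal regions of the GLN and RLTR4 elements were lower in the KO libraries. The GLN internal region stood at 0.738 of its WT level and the RLTR4 internal region at 0.821. Both calls depended on the settings: over 17 alternatives MMERGLN-int passed in 9 and RLTR4_MM-int in 8, both with a fold change below 0 in all 17. Neither passed by total counts, by total counts outside structural RNA, with a replicate block, or with KO replicate 2 and WT replicate 1 left out together. The other 5 rows, among them both LTRs, did not pass the test. In the test over all 1193 rows (quasi-likelihood test of edgeR, called at an adjusted p below 0.05 after Benjamini-Hochberg adjustment), 2 of the 7 rows were lower and none higher, where 3.6% of all tested rows were lower and 2.18% higher. The median log2 fold change of the 7 rows was -0.11, beside 0.01 over all tested rows. All 3 KO libraries lay below all 3 WT libraries in 3 of the 7 rows, where 13.4% of all tested rows did so. None of the 7 had all KO libraries above all WT libraries, where 12.4% of all tested rows did.

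**Figure D1:**
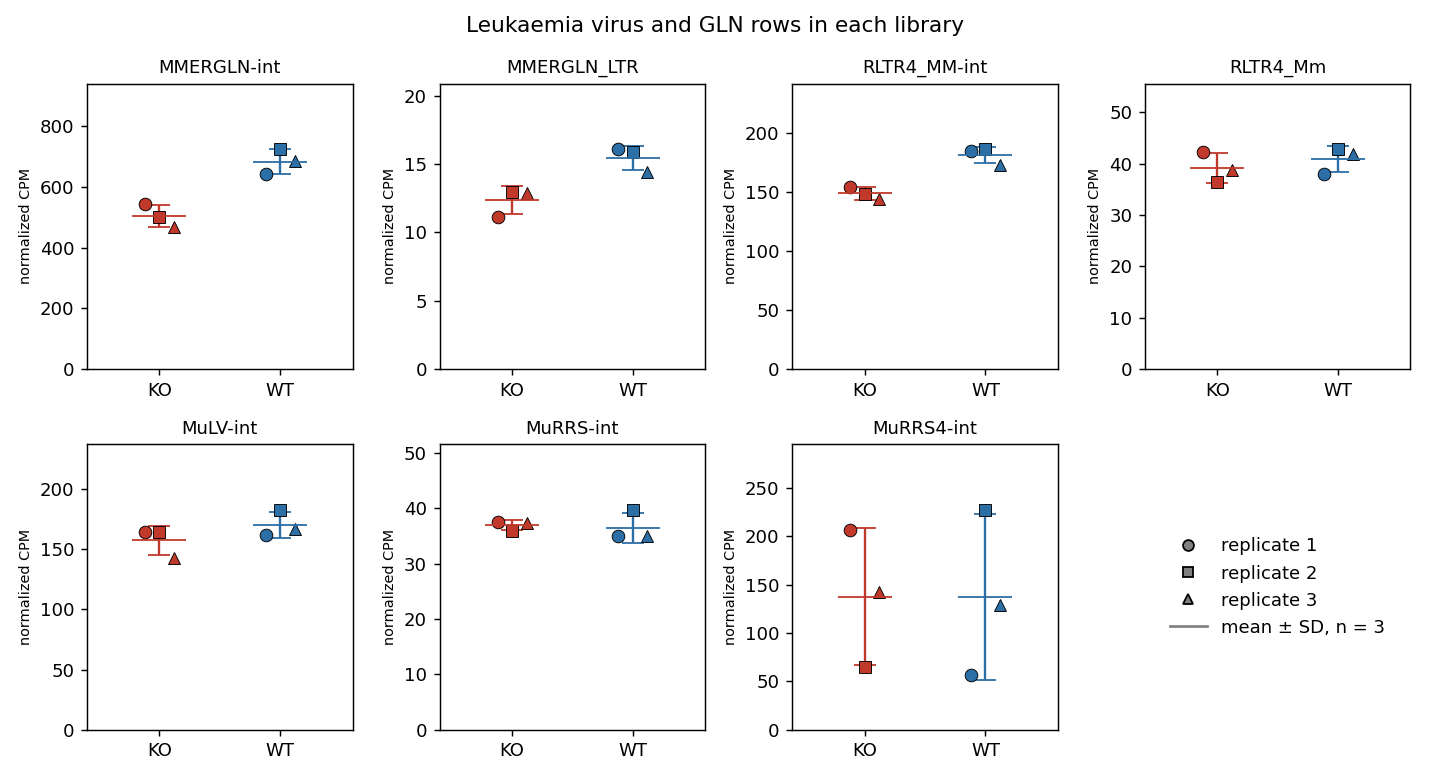
Level of each of the 7 rows in normalized CPM (vertical axes, each starting at 0) in the 3 KO (red) and 3 WT (blue) libraries, with the mean and SD as bars and the replicate number as the symbol. MMERGLN-int, MMERGLN_LTR and RLTR4_MM-int show no overlap between genotypes, whereas MuRRS4-int runs from 56.4 to 227 normalized CPM with both genotypes spread over that range.

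GLN was represented by its internal region, which codes for the virion proteins in intact copies, and by its LTR. MMERGLN-int was counted 4427, 10111 and 6950 times in KO replicates 1, 2 and 3, and 15463, 5560 and 9838 times in WT replicates 1, 2 and 3. Its level was 542, 502 and 469 normalized CPM in the KO libraries, against 642, 723 and 685 in the WT libraries. The highest KO library lay below the lowest WT library. The level averaged 504 ± 36.8 in KO and 683 ± 40.8 in WT (SD, n = 3 each), for a log2 fold change of -0.44 (standard error 0.08, 95% interval -0.62 to -0.25, edgeR adjusted p = 0.0192). This was the eighth lowest of 107 fold changes among ERV1 rows and the fifth lowest of 126 among internal regions of the LTR class.

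For MMERGLN-int the SD was 7.30% of the mean in KO and 5.97% in WT, while the counting error of a single library was between 0.804% and 1.5%. The call did not hold without KO replicate 2 (log2 fold change -0.44), KO replicate 3 (-0.39), WT replicate 2 (-0.40) or WT replicate 3 (-0.43). When the libraries with the smallest rRNA share, KO replicate 2 and WT replicate 1, were both left out, the log2 fold change was -0.47 and neither this row nor any other of the 7 passed.

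MMERGLN_LTR, the GLN promoter and terminator region, was a row of few counts. It had 91, 261 and 191 counts in KO replicates 1, 2 and 3, and 387, 122 and 207 in WT replicates 1, 2 and 3. These correspond to 11.1, 13.0 and 12.9 normalized CPM in KO and 16.1, 15.9 and 14.4 in WT, again with no overlap between genotypes. The log2 fold change was -0.31 (standard error 0.09, 95% interval -0.53 to -0.09), and it did not pass over all rows (edgeR adjusted p = 0.103, unadjusted p = 0.0113). Here counting error alone reached 10.5% in KO replicate 1, above the replicate SD of 8.31% of the mean in KO and 5.85% in WT.

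RLTR4 is the name of a leukaemia virus-type LTR and of the internal sequence found with it. RLTR4_MM-int, the internal part, had 1261, 2988 and 2132 counts in KO replicates 1, 2 and 3 and 4445, 1431 and 2490 in WT replicates 1, 2 and 3. Its level was 154, 148 and 144 normalized CPM in KO, against 184, 186 and 173 in WT. The genotypes did not overlap, and the replicates lay closer together than those of the GLN row, with an SD of 3.60% of the mean in KO and 3.84% in WT. The log2 fold change was -0.28 (standard error 0.06, 95% interval -0.41 to -0.16, edgeR adjusted p = 0.0213). The call did not hold without KO replicate 2 (-0.28) or KO replicate 3 (-0.26), nor with any 1 of the WT replicates left out (-0.27, -0.27 and -0.31 for replicates 1, 2 and 3).

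RLTR4_Mm, the matching LTR, showed no such separation. It was at 42.4, 36.5 and 38.7 normalized CPM in KO and at 38.0, 42.8 and 41.8 in WT, so the genotypes overlapped. The log2 fold change was -0.06 with a 95% interval of -0.22 to 0.10 (edgeR adjusted p = 0.684). Between the level of this LTR row and the rRNA share, Pearson's r was 0.76 over 6 libraries (exact permutation p = 0.0764, adjusted p = 0.266 over 7 rows) and Spearman's rho 0.83 (exact permutation p = 0.0583, adjusted p = 0.136). Without KO replicate 2 and WT replicate 1, r was 0.52. With the rRNA level as a covariate its log2 fold change was -0.10, and that of RLTR4_MM-int -0.29.

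**Figure D2:**
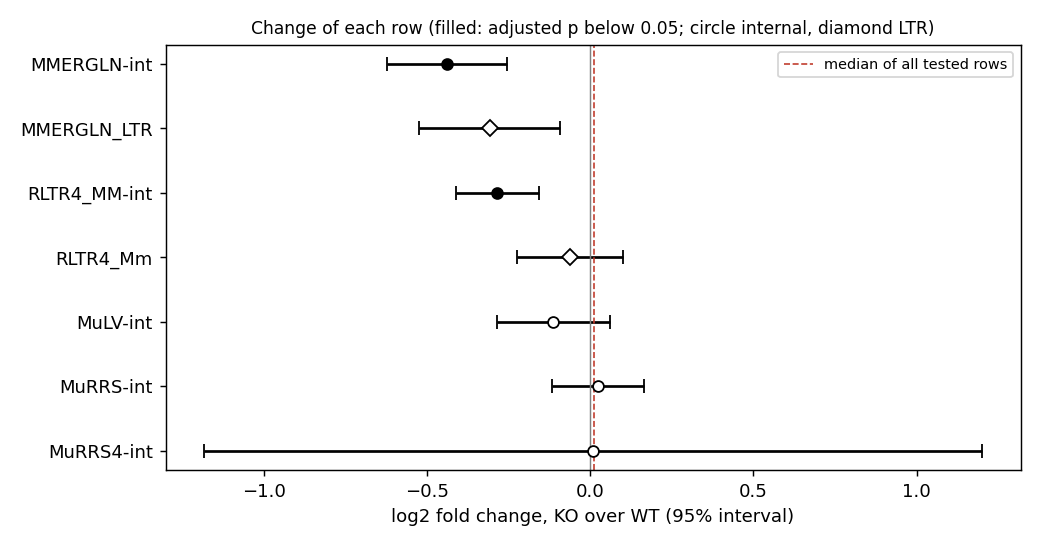
Log2 fold change of each row in KO over WT (horizontal axis) with its 95% interval from the edgeR fit over all rows, internal regions as circles and LTRs as diamonds, filled where the adjusted p was below 0.05. Only MMERGLN-int at -0.44 and RLTR4_MM-int at -0.28 are filled, and the interval of MuRRS4-int reaches from -1.18 to 1.20.

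MuLV-int is a further internal row of the murine leukaemia viruses, listed apart from RLTR4_MM-int by the repeat annotation. It was at 165, 165 and 143 normalized CPM in KO and at 162, 183 and 167 in WT. KO replicates 1 and 2 lay above WT replicate 1, so the genotypes overlapped. The log2 fold change was -0.11 (standard error 0.07, 95% interval -0.28 to 0.06, edgeR adjusted p = 0.446). The lower end of that interval, -0.2850, only just reaches the -0.2842 of RLTR4_MM-int. The interval covers the error of MuLV-int alone, so it does not compare the 2 rows.

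MuRRS-int, an internal row of the retrovirus-related sequences, had the smallest SD relative to its mean in KO among the 7 rows, at 2.46%. The counting error of a single KO library was larger, from 3.72% to 5.71%, so this steadiness lies within counting noise. MuRRS-int was at 37.6, 35.9 and 37.3 normalized CPM in KO and at 34.9, 39.7 and 35.0 in WT, and the KO values lay inside the WT range. The log2 fold change was 0.02 with a 95% interval of -0.12 to 0.17 (edgeR adjusted p = 0.878). Its rank order over the libraries followed rRNA with Spearman's rho = 0.89 (exact permutation p = 0.0333, adjusted p = 0.117 over 7 rows), though Pearson's r was 0.71 (exact permutation p = 0.114, adjusted p = 0.266), and 0.83 without KO replicate 2 and WT replicate 1.

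Comparing rows of the same library removes the library scale. The question was whether the internal regions moved by more than their LTRs, and whether the internal regions moved alike. With 3 libraries against 3 the smallest exact two-sided permutation p is 0.1, so no ratio could pass 0.05. The first 3 ratios were planned, though with earlier results of these data known. The last 2 were added after the values had been seen, and adjusted p-values cover all 5.

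RLTR4_MM-int had 3.64, 4.07 and 3.71 counts per RLTR4_Mm count in KO replicates 1, 2 and 3, against 4.85, 4.35 and 4.14 in WT replicates 1, 2 and 3. Every KO ratio was below every WT ratio. The mean log2 ratio was 1.93 ± 0.0842 in KO and 2.15 ± 0.117 in WT (SD, n = 3 each), a difference of -0.22 (exact permutation p = 0.1, the smallest possible; adjusted p = 0.167). For GLN the same ratio of internal to LTR counts was 48.6, 38.7 and 36.4 in KO and 40.0, 45.6 and 47.5 in WT. These overlapped, and the difference in log2 ratio was -0.11 (exact permutation p = 0.5, adjusted p = 0.5), with an SD of 0.22 in KO that exceeds the difference. The GLN ratio is also less precise, since the LTR count below the line was as small as 91.

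Between internal regions, the ratio of MMERGLN-int to RLTR4_MM-int was 3.51, 3.38 and 3.26 in KO and 3.48, 3.89 and 3.95 in WT. KO replicate 1 lay above WT replicate 1, and the difference in log2 ratio was -0.15 (exact permutation p = 0.2, adjusted p = 0.25), so the larger fall of GLN was not separated from that of RLTR4. MuLV-int stood at 1.07, 1.11 and 0.996 counts per RLTR4_MM-int count in KO and at 0.878, 0.981 and 0.961 in WT. These did not overlap and differed by 0.17 in log2 ratio (exact permutation p = 0.1, adjusted p = 0.167). MuRRS-int stood at 0.243, 0.242 and 0.259 counts per RLTR4_MM-int count in KO and at 0.189, 0.213 and 0.202 in WT. It differed by 0.30 in log2 ratio, the widest gap of the 5 ratios, again without overlap (exact permutation p = 0.1, adjusted p = 0.167). None of the 5 differences passes 0.05, and in 3 of them the KO and WT libraries stood apart. All 3 contain RLTR4_MM-int, the row already called lower in KO, so they are not separate observations.

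**Figure D3:**
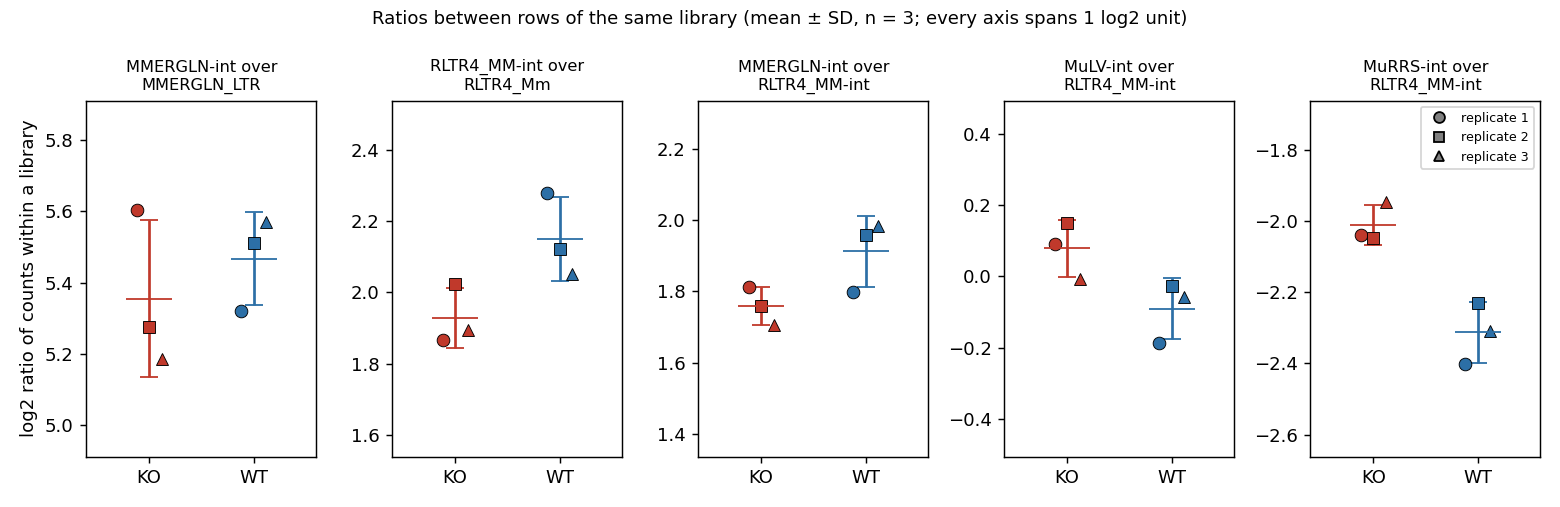
Log2 ratio of the counts of 2 rows within each library (vertical axes, each spanning 1 log2 unit) for KO (red) and WT (blue), with the mean and SD as bars. The KO and WT points are apart for RLTR4_MM-int over RLTR4_Mm and for MuLV-int and MuRRS-int over RLTR4_MM-int, and they overlap in both ratios with MMERGLN-int on top.

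MuRRS4-int, the remaining internal row, had the widest spread of the 7. Its raw counts were 1685, 1299 and 2111 in KO replicates 1, 2 and 3 and 1359, 1747 and 1852 in WT replicates 1, 2 and 3. In normalized CPM this became 206, 64.5 and 142 in KO and 56.4, 227 and 129 in WT, a span of 4.0-fold that cut across genotype. The SD was 51.6% of the mean in KO and 62.3% in WT, and the log2 fold change of 0.01 had a 95% interval of -1.18 to 1.20 (edgeR adjusted p = 0.998). With the rRNA level as a covariate the log2 fold change was -0.25, of opposite sign, and did not pass (edgeR adjusted p = 0.144, unadjusted p = 0.0292).

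Its level in normalized CPM went with the rRNA share of the library. KO replicate 2 and WT replicate 1, with the least rRNA, had the lowest levels, and those with the most rRNA, KO replicate 1 and WT replicate 2, the highest. Pearson's r between the log2 level and the rRNA share was 0.96 (exact permutation p = 0.00278, adjusted p = 0.0194 over 7 rows) and Spearman's rho was 0.94 (exact permutation p = 0.0167, adjusted p = 0.117). Without KO replicate 2 and WT replicate 1, the libraries farthest from the median rRNA share, r was 0.98. Of 940 rows averaging 50 counts or more, 15 (1.6%) had r of at least 0.9 and a span of at least 2-fold, MuRRS4-int among them. As CPM of all counts, rRNA included, the direction was opposite, with 176 in WT replicate 1 and 87.4 in KO replicate 1. On that scale other rows of the group fell more steeply between the same 2 libraries. MMERGLN-int went from 2006 to 230 and RLTR4_MM-int from 577 to 65.4, so MuRRS4-int still rose relative to them. What makes MuRRS4-int follow rRNA in normalized CPM was not tested. MMERGLN-int and RLTR4_MM-int had r of 0.00424 and -0.21 with rRNA (exact permutation p = 0.992 and p = 0.664, adjusted p = 0.992 and p = 0.896).

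**Figure D4:**
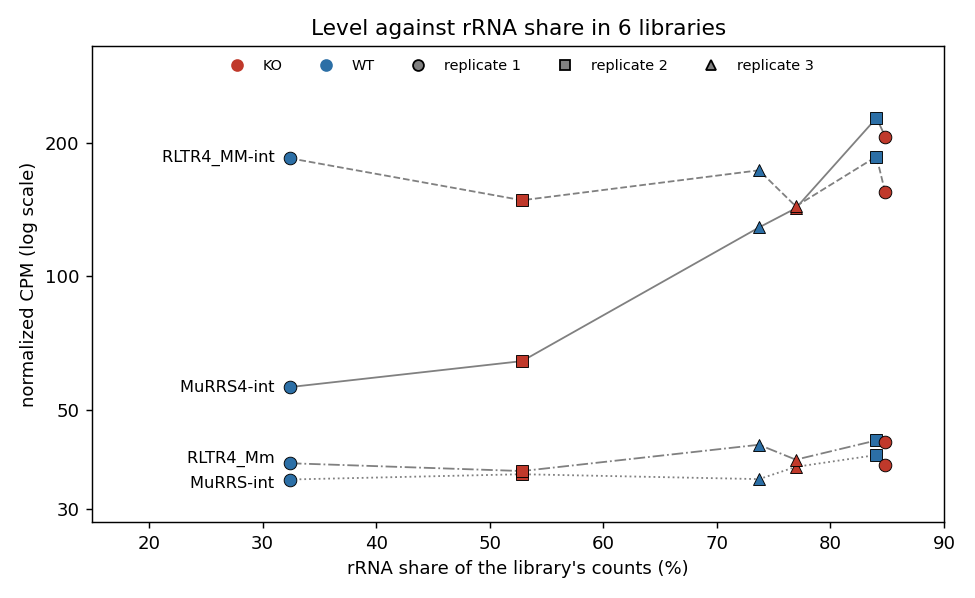
Normalized CPM on a log scale (vertical axis) against the rRNA share of the library's counts in percent (horizontal axis) for 4 rows in the 3 KO (red) and 3 WT (blue) libraries, with lines joining the values of a row. MuRRS4-int climbs from 56.4 at 32.4% rRNA to 206 at 84.8%, while RLTR4_MM-int, RLTR4_Mm and MuRRS-int stay within a narrow band.

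Taken as a sum, the 7 rows held 21.9%, 20.6% and 19.9% of all ERV1 counts in KO replicates 1, 2 and 3 and 21.7%, 22.7% and 21.7% in WT replicates 1, 2 and 3. Their mean share was 20.8% ± 1.03 in KO and 22.0% ± 0.589 in WT (SD, n = 3 each), and KO replicate 1 fell within the WT range. With MuRRS4-int left out, a choice made after its values were seen, the other 6 rows summed to 952, 901 and 845 normalized CPM in KO and to 1077, 1190 and 1116 in WT. The sum averaged 899 in KO and 1128 in WT, and MMERGLN-int alone averaged 504 and 683. Most of the gap is therefore that row, already called lower in KO, and the sum is not a separate observation. GLN made up 49.98% ± 2.99 of the counts of the 7 rows in KO and 55.4% ± 3.01 in WT, a difference that includes the swings of MuRRS4-int. The genotypes overlapped in this share, with KO replicate 2 at 53.4% and WT replicate 2 at 52.1%.

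Related elements were counted for comparison. VL30 elements are retrovirus-like sequences without intact viral genes that leukaemia viruses can package. None of their 5 tested rows passed, with a median log2 fold change of -0.21. In 2 of the 5, both with few counts, all 3 KO libraries lay below all 3 WT libraries, where 13.4% of all tested rows did so. These were RLTR6C_Mm (log2 fold change -0.44, edgeR adjusted p = 0.253) and RLTR6_Mm (-0.21, edgeR adjusted p = 0.361). MMVL30-int, an internal row, was at 2388, 1996 and 2177 normalized CPM in KO and at 2364, 3093 and 2790 in WT, where KO replicate 1 lay just above WT replicate 1. Its log2 fold change of -0.33 lay between those of the GLN and RLTR4 internal rows but did not pass (edgeR adjusted p = 0.188). RLTR6-int, a second VL30 internal row, was at 156 ± 29.0 in KO and 142 ± 31.2 in WT (edgeR adjusted p = 0.692). Of the 95 tested ERV1 rows outside both groups, 1 was higher and 2 were lower in KO, with a median of 0.04. The rows of highest level among them, RMER5 and MLTR14, had log2 fold changes of -0.01 (edgeR adjusted p = 0.964) and 0.09 (edgeR adjusted p = 0.529).

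The rows most like the 2 called ones across libraries came from other repeat families. Likeness was the root mean square difference of log2 level after centring each row on its own mean over 6 libraries, among 933 rows outside the group that averaged 50 counts or more. Nearest to MMERGLN-int were B2_Mm1t, a B2 SINE (difference 0.0495, log2 fold change -0.36), Charlie6, a DNA transposon (0.0506, -0.37), and MTE2a-int, a MaLR internal region (0.0552, -0.37). Nearest to RLTR4_MM-int were B2_Mm2 (0.0375, -0.26) and the internal regions IAPLTR3-int (0.0379, -0.24) and IAPEz-int (0.0410, -0.23) of intracisternal A particles. Rows picked by likeness have similar fold changes by construction. Charlie6, MTE2a-int and IAPLTR3-int passed (edgeR adjusted p = 0.0330, 0.0368 and 0.0133). B2_Mm1t, B2_Mm2 and IAPEz-int did not (edgeR adjusted p = 0.0590, 0.164 and 0.0742). The pair MMERGLN-int and RLTR4_MM-int differed by 0.101. MMERGLN-int differed by 0.157 from its own LTR, and RLTR4_MM-int by 0.138 from RLTR4_Mm.

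The scale of the comparison matters for the direction of small changes. Scaled by total counts with rRNA included, the median log2 fold change of all rows was -0.36 and not 0.01, and no row was called. On that scale all 7 rows lay below 0, from -0.77 for MMERGLN-int to -0.16 for MuRRS4-int. Relative to the median of all rows, MMERGLN-int lay at -0.45 on the TMM scale and at -0.41 by total counts, and RLTR4_MM-int at -0.30 and -0.31. MuRRS-int lay at 0.01 and 0.03.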

How the data were processed

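Libraries were made from total RNA with TruSeq Ribo-Zero, a kit that depletes rRNA, per the labels' protocols. FastQC 0.11.5, Trimmomatic and Bowtie2 and the builds mm10 and GRCm38 are named in the submitters' processing notes. The authors deposited estimated counts (fractional counts, all whole numbers in the files) per repeat row, without normalization. The counting tool, repeat annotation and strand handling are not stated in the labels. Group and replicate came from the sample titles.

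Counts were fitted in R 4.3.3 with edgeR 4.0.16: filterByExpr kept 1193 of 1336 rows, TMM factors ran from 0.423 to 3.13, and KO was set against WT with the quasi-likelihood test, p-values being adjusted (Benjamini-Hochberg) over all tested rows. Standard errors came from the test statistic. The median tested row had 107 to 350 counts per library. In 5 simulations of 1193 rows with 200 changed, the fit found 67.5% of the 1.5-fold changes and 89.7% of the 2-fold ones, and 4.76% of its calls were false. Simulated rows varied independently, without the swings shared between rows that follow rRNA, and no change below 1.5-fold was simulated. The share of false calls in the real comparison was therefore not tested. No 2 libraries agreed within sampling noise (chi-square per degree of freedom at least 27.4). Same-numbered KO and WT libraries did not deviate together (correlations -0.75, -0.72 and 0.13). Their rRNA shares lay far apart in replicates 1 and 2, so this check cannot decide whether the numbers pair samples. The main test was unpaired, and the replicate block was run as an alternative. Alternatives used DESeq2 1.42.0 and limma 3.58.1 (voom), among other settings.

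All 7 rows are named, with the 3 nearest rows to each called one and the 2 rows of highest mean level, not corrected for length, in each related list. Members, lists and tests were chosen with earlier results of these data known.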

Additional observations from a re-analysis of the deposited data

How the results depend on the processing

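Of the 7 rows, 2 were called as reported, and also with DESeq2 size factors, no count filter, a mean of at least 50 counts, transposable element rows only, DESeq2, limma-voom and the rRNA level as a covariate. None was called by total counts, by total counts outside structural RNA, or without WT replicate 1 and KO replicate 2, and leaving out single libraries gave between 0 and 2. Over all rows 69 were called as reported (26 higher, 43 lower), 0 by total counts (3 at an unadjusted p under 0.05, 0 of them among the 7 rows), 6 by total counts outside structural RNA (0 higher, 6 lower), 40 with transposable element rows only and 9 without WT replicate 1 and KO replicate 2. Leaving out single libraries gave 22 to 69. With the replicate block 24 rows were called and 0 of the 7 (MMERGLN-int -0.44 and RLTR4_MM-int -0.28, both edgeR adjusted p = 0.101). Over 17 alternatives MMERGLN-int passed in 9 and RLTR4_MM-int in 8, both below 0 in all 17, at adjusted p from 4.87e-06 to 0.999 and from 0.00506 to 0.999. MMERGLN_LTR, MuLV-int and RLTR4_Mm passed in 0 of 17 and lay below 0 in each. MuRRS-int and MuRRS4-int changed sign in 2 and 7 without passing. The 5 ratios kept their sign with each library left out and with the replicate block. The causes of lost calls were not tested.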

Other observations

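MuRRS elements have been described with an LTR type called LTR-IS, whose rows carry names starting with LTRIS and were outside the name rule. They were looked at after the values of the MuRRS rows had been seen. Of 9 such rows, all tested, 2 were lower in KO and none higher, where 3.6% of all tested rows were lower. LTRIS2 was at 18.4, 24.8 and 23.4 normalized CPM in KO replicates 1, 2 and 3 and at 29.5, 34.3 and 34.4 in WT replicates 1, 2 and 3, for a log2 fold change of -0.53 (standard error 0.11, edgeR adjusted p = 0.0330). LTRIS_Mus was at 33.8, 36.0 and 35.9 in KO and at 41.9, 39.4 and 41.3 in WT, for a log2 fold change of -0.21 (standard error 0.05, edgeR adjusted p = 0.0497). The call of LTRIS2 did not hold without KO replicate 2 (-0.62), KO replicate 3 (-0.56), WT replicate 2 (-0.50) or WT replicate 3 (-0.48), and that of LTRIS_Mus with any 1 library left out (-0.19 to -0.24). LTRIS2 also did not pass with limma-voom (adjusted p = 0.0544). LTRIS_Mus did not pass with DESeq2 (adjusted p = 0.223), limma-voom (adjusted p = 0.0861), a mean of at least 50 counts (edgeR adjusted p = 0.0650), transposable element rows only (0.0627), the rRNA covariate (0.0788) or the replicate block (0.192). Neither passed by total counts, by total counts outside structural RNA, or with KO replicate 2 and WT replicate 1 left out together. In both rows the genotypes did not overlap, and the same held for LTRIS3, which was not called (edgeR adjusted p = 0.379). Over all tested rows, 13.4% had all KO libraries below all WT libraries. The KO values of MuRRS-int lay within the WT range. LTRIS_Mm, at 11.8 ± 0.684 in KO and 11.3 ± 0.753 in WT (SD, n = 3 each), did not pass (edgeR adjusted p = 0.757). LTRIS4B was at 9.19, 2.04 and 4.05 normalized CPM in KO and at 2.45, 8.19 and 4.38 in WT, with its lowest and highest libraries the same low-rRNA and high-rRNA pairs as for MuRRS4-int, and it was the second nearest row to MuRRS4-int (root mean square difference 0.228).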
